A study of Homo sapiens with 2 samples.

Results

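The genes described here encode the replicative helicase subunits MCM2, MCM3, MCM4, MCM5, MCM6 and MCM7 and the sliding clamp PCNA, 7 of the 57820 gene IDs in a table of ribosome footprints. They were taken by their Ensembl IDs, matched without the version suffix, and all 7 were present: ENSG00000073111.9 (MCM2), ENSG00000112118.13 (MCM3), ENSG00000104738.12 (MCM4), ENSG00000100297.11 (MCM5), ENSG00000076003.4 (MCM6), ENSG00000166508.13 (MCM7) and ENSG00000132646.6 (PCNA). The pairing of these IDs with their names came with the list of genes, since neither the count table nor the RefSeq gene table used here pairs Ensembl IDs with symbols. The cells were HEK293, an established human embryonic kidney line, kept in DMSO vehicle for 12 h. The group held 2 libraries, replicate 1 from batch 1 and replicate 2 from batch 2, each made from 2 plates of cells. Ribosome profiling digests mRNA with RNase I and sequences the pieces shielded inside ribosomes, so a footprint marks a ribosome that sat on the mRNA. Fragments of 27 to 29 nt were counted per gene. Cells treated with minocycline were not analysed here, so genes were compared with each other in a library, and the pair of vehicle libraries with each other.

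MCM2 to MCM7 assemble into a ring that is loaded around DNA at replication origins before S phase and is then switched on, together with CDC45 and the GINS complex, to unwind DNA ahead of the replication fork. The ring holds the same number of copies of each subunit. PCNA forms a separate ring of identical subunits that slides along DNA behind the helicase and holds DNA polymerases, FEN1, LIG1 and many other partners at the fork. In human cells these genes are classical targets of E2F transcription factors, whose activity peaks as cells enter S phase, and they are translated in dividing cells.

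The promoters are shown because E2F letters occurred in each of the 5 genes whose promoters could be searched. No letters other than those of E2F and CCAAT were searched. RefSeq promoter windows (GRCh38.p14, 250 bases before to 50 after each listed start site) were found for 5 of the 7 genes: MCM2, MCM3, MCM6, MCM7 and PCNA. MCM4 and MCM5 had no entry. The letters searched on both strands were TTTCCCGC, TTTCGCGC, TTTGCCGC and TTTGGCGC, common forms of the E2F site. All 5 genes had at least 1 match, against 3.99% of the 27305 genes with a window. Counted by window, 5 of the 8 member windows had a match, against 3.31% of all 35116 windows. The 3 windows without one were 2 further start sites of MCM7 and 1 of PCNA. The genes are known E2F targets, so matches were likely beforehand, and these shares are no test of enrichment. Each match is printed within 30 bases on the gene's own strand, 5′ to 3′, with the matched bases in capitals.
MCM2: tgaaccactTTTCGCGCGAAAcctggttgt
MCM3, upstream match: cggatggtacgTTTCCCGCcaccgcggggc
MCM3, match spanning the start site: agttcggaagtTTTCGCGCcggggtggagt
MCM6, upstream match: ggctttgcaTTTGGCGCGAAAtccctttcc
MCM6, nearer match: ttggtcaggTTTGGCGCGAAAtctccagct
MCM7, upstream match: cagctcggaccGCGGGAAAcccggcgcctg
MCM7, match just before the start site: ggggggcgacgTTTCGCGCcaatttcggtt
PCNA: cagcgtcagggGCGGGAAAaggcgtgcgtt

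The MCM2 sequence lies at chr3:127598404-127598433 on the plus strand, with its first matched base at 3 counted from the start site as 1. The MCM3 sequences lie on the minus strand at chr6:52284898-52284927 (first matched base at -174) and chr6:52284728-52284757 (-4). Those of MCM6 lie on the minus strand at chr2:135876575-135876604 (-152) and chr2:135876513-135876542 (-90). Those of MCM7 lie on the minus strand at chr7:100101566-100101595 (-187) and chr7:100101388-100101417 (-9). The PCNA sequence lies on the minus strand at chr20:5126663-5126692 (-59). In MCM2 and in both MCM6 sequences, 2 matches on opposite strands overlapped, giving a run of 12 matched bases. CCAAT, the letters bound by the factor NF-Y, was searched on both strands too. It occurred in 4 of the 5 genes (all but MCM2), against 39.7% of all genes with a window. Counted by window, CCAAT occurred in 7 of the 8 member windows, against 34.6% of all windows. MCM7 and PCNA have more than 1 window each, which raises the count by gene. A match to these letters is a description of the sequence, and the footprint counts do not measure transcription factor binding.

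The 7 genes together drew 2455 footprints in replicate 1 and 1355 in replicate 2. That was 0.284% of all counts in replicate 1 (95% exact Clopper-Pearson interval 0.272 to 0.295) and 0.222% in replicate 2 (0.210 to 0.234), with a mean of 0.253% ± 0.0437 (SD, n = 2). The libraries held 865838 counts in replicate 1 and 611266 in replicate 2, so 1 count was worth 1.16 and 1.64 counts per 1000000 (CPM), and these intervals cover counting error of independent fragments only. The 2 highest IDs of the table held 17.6% of the counts in replicate 1 and 23.2% in replicate 2. CPM was not corrected for this difference, so overlap of CPM intervals between the libraries depends on scaling by library size. Every member was read from whole counts: none of the 7 held a non-whole value, against 21.6% of the 2241 IDs whose counts summed to at least 100. All 7 passed that minimum, with summed counts between 279 and 1402. Without matched RNA-seq, more mRNA, more ribosomes per mRNA and more cells in S phase cannot be told apart as sources of a footprint count. The labels do not state that the libraries came from independent cultures, so an SD over them may be partly technical.

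MCM7, which encodes the shortest of the MCM2 to MCM7 proteins, had 909 footprints in replicate 1 and 493 in replicate 2, or 1050 and 807 CPM. Its mean of 928 ± 172 CPM (SD, n = 2) placed it at rank 100 among the 6965 IDs whose counts summed to at least 20. No other gene of the set reached its count in either library, and the libraries' counting intervals for MCM7 did not overlap, with replicate 1 the higher.

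MCM3, whose subunit sits beside MCM5 and MCM7 in the ring, had 552 footprints in replicate 1 and 244 in replicate 2, or 638 and 399 CPM. The mean was 518 ± 169 CPM (SD, n = 2), at rank 237 of 6965. Replicate 1 was again the higher, and MCM3 had the widest spread of the set, with a coefficient of variation of 32.5%. MCM4, a subunit phosphorylated by the CDC7 kinase when origins fire, had 257 and 184 footprints in replicates 1 and 2, or 297 and 301 CPM. Its mean was 299 ± 2.96 CPM (SD, n = 2). By library size this was the narrowest spread of the set, with a coefficient of variation of 0.99%, smaller than the counting interval of either library alone. The closeness depends on that scaling. As a share of the footprints on MCM2 to MCM7, MCM4 differed, with 11.2% in replicate 1 and 15.0% in replicate 2.

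MCM6, which with MCM4 and MCM7 forms a core with helicase activity in vitro, had 216 footprints in replicate 1 and 103 in replicate 2, or 249 and 169 CPM. By library size replicate 1 was higher, with counting intervals that did not overlap (217 to 285 CPM in replicate 1 and 138 to 204 CPM in replicate 2). MCM5, which with MCM2 forms the gate through which the ring opens around DNA, had 185 and 94 footprints in replicates 1 and 2, or 214 and 154 CPM, and its intervals overlapped slightly (184 to 247 CPM in replicate 1 and 124 to 188 CPM in replicate 2). MCM2, whose N-terminal tail also binds histones H3 and H4, had 176 and 109 footprints, or 203 CPM in replicate 1 and 178 in replicate 2. These values overlapped within counting error.

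PCNA had 160 footprints in replicate 1 and 128 in replicate 2, or 185 and 209 CPM. It was higher in replicate 2 by library size, the opposite direction to MCM2, MCM3, MCM5, MCM6 and MCM7, though its intervals overlapped. Its mean of 197 ± 17.4 CPM (SD, n = 2) lay among those of MCM2 (191 ± 17.6), MCM5 (184 ± 42.4) and MCM6 (209 ± 57.3), on a coding sequence that is much shorter than that of any MCM gene. The ranges over the 2 libraries overlapped for each pair of these 4 genes (154 to 214 CPM for MCM5, 169 to 249 for MCM6, 178 to 203 for MCM2 and 185 to 209 for PCNA), so their order is not set by these libraries. Above them, the values of MCM4, MCM3 and MCM7 lay apart from one another and from those of the 4 in both libraries, though in replicate 1 the counting intervals of MCM4 (262 to 335 CPM) and MCM6 (217 to 285 CPM) overlapped. CPM counts fragments per gene and is not divided by length. Coding lengths were not available in the tables used here, so these values rank footprint output, and neither ribosome density nor the balance of protein made per subunit was computed.

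**Figure D1:**
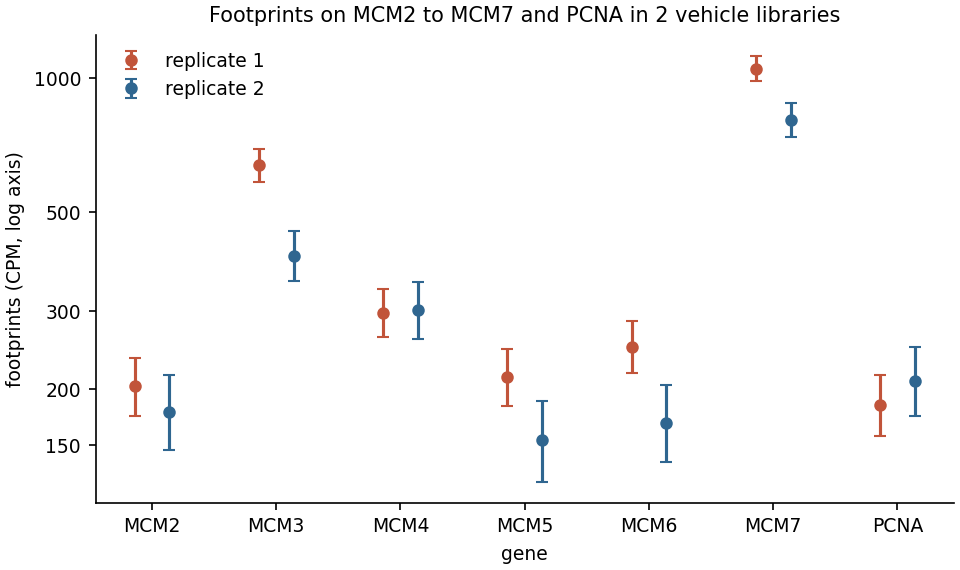
Footprints on each gene in CPM (log axis) for replicate 1 (red) and replicate 2 (blue); points are single libraries and bars their 95% exact Clopper-Pearson intervals, which hold counting error only. MCM7 lies at 1050 and 807 CPM and MCM3 at 638 and 399 CPM, while MCM2, MCM5, MCM6 and PCNA share the range of 154 to 249 CPM.

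How the footprints divided over the set does not depend on any scaling between the libraries. MCM7 held 39.6% of the footprints on MCM2 to MCM7 in replicate 1 (95% exact interval 37.6 to 41.6) and 40.2% in replicate 2 (37.4 to 43.0). This share was the steadiest relative to its size, at 39.9% ± 0.40 (SD, n = 2). MCM3 held 24.1% in replicate 1 (22.3 to 25.9) and 19.9% in replicate 2 (17.7 to 22.2), and MCM4 held 11.2% (9.94 to 12.6) and 15.0% (13.0 to 17.1). For MCM3 (narrowly) and MCM4 the intervals of the 2 libraries did not overlap, with MCM3 higher in replicate 1 and MCM4 higher in replicate 2. The shares of MCM2 (7.67% in replicate 1 and 8.88% in replicate 2), MCM5 (8.06% and 7.66%) and MCM6 (9.41% and 8.39%) had overlapping intervals. Of the footprints on all 7 genes, PCNA held 6.52% in replicate 1 (5.57 to 7.57) and 9.45% in replicate 2 (7.94 to 11.1).

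**Figure D2:**
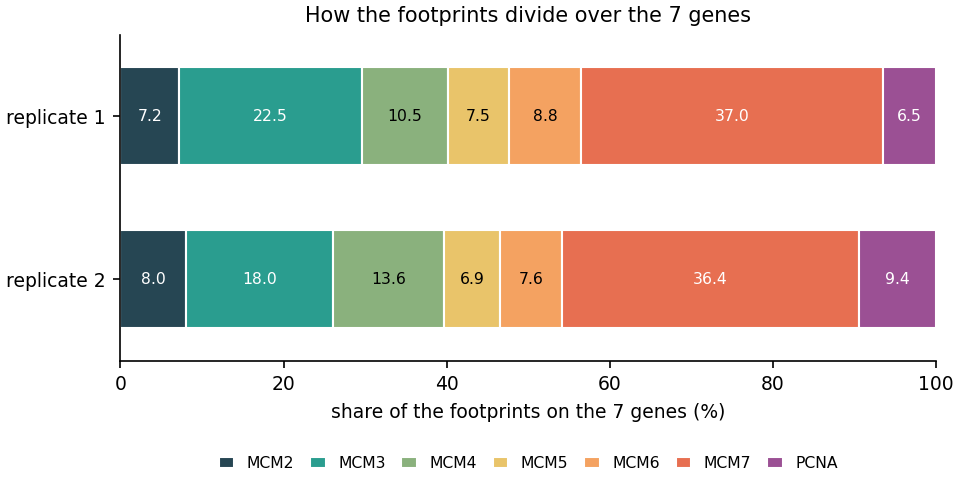
Share of the footprints on the 7 genes (%) that fell on each gene, with replicate 1 above replicate 2; the segments of a bar sum to 100%. MCM7 held 37.0% and 36.4%, MCM3 22.5% and 18.0%, MCM4 10.5% and 13.6%, and PCNA 6.52% and 9.45% in replicates 1 and 2.

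The libraries were then compared gene by gene, as the log2 ratio of replicate 1 over replicate 2 after TMM scaling. This scaling brings a trimmed, weighted mean of the log2 ratios over IDs near 0, and single IDs can lie far from it. MCM3 had the highest ratio at 0.57 (95% exact binomial interval 0.35 to 0.79), followed by MCM6 at 0.46 (0.11 to 0.81), MCM5 at 0.36 (-0.001 to 0.74), MCM7 at 0.27 (0.11 to 0.43) and MCM2 at 0.08 (-0.27 to 0.44). MCM4 at -0.13 (-0.41 to 0.15) and PCNA at -0.29 (-0.63 to 0.06) were higher in replicate 2, with intervals that included 0. So 5 of the 7 genes were higher in replicate 1, against 56.8% of the 2241 IDs whose counts summed to at least 100. The interval excluded a ratio of 1 for 3 genes (MCM3, MCM6 and MCM7), against 37.9% of those IDs. These 3 held under each scaling tried, while MCM5 joined them by library size (0.11 to 0.85) and PCNA, higher in replicate 2, with TMM over IDs of at least 100 counts (-0.70 to -0.01). None of the 7 lay past 1.5-fold, against 20.4% of those IDs. The IDs include ones with fewer counts than any of the 7 genes, so more counting error enters their shares. The median of mean CPM was 135 over the IDs and 209 over the 7 genes. By library size MCM3 passed 1.5-fold, with a log2 ratio of 0.67, and 16.7% of the IDs then lay past 1.5-fold towards replicate 1.

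**Figure D3:**
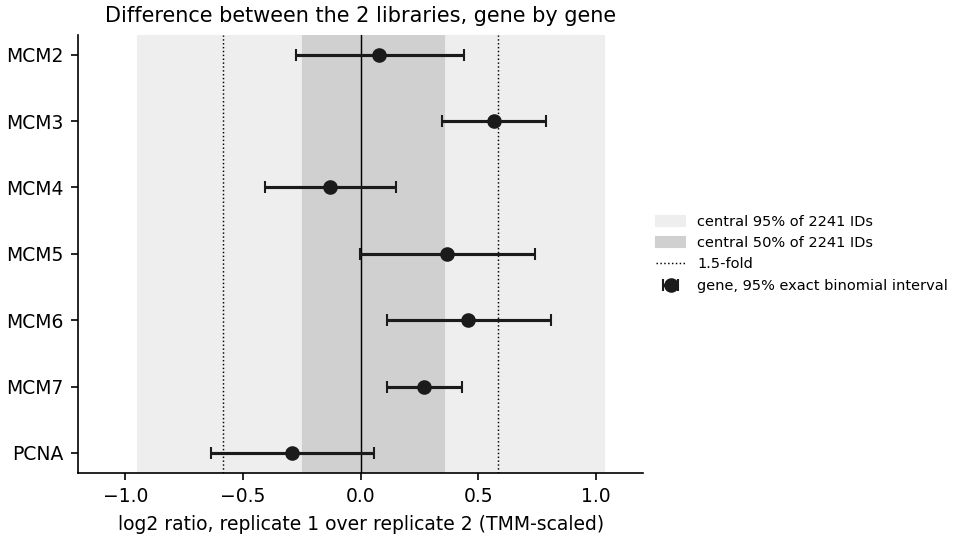
Log2 ratio of replicate 1 over replicate 2 after TMM scaling for each gene, with 95% exact binomial intervals; shading marks the central 50% (dark) and 95% (light) of the ratios of the 2241 IDs, and dotted lines mark 1.5-fold. The ratios run from -0.29 for PCNA to 0.57 for MCM3, all inside the light band.

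The median log2 ratio was 0.27 over the 7 genes and 0.07 over the 2241 IDs. The median absolute log2 ratio was 0.29 over the genes and 0.30 over the IDs, which include ones with fewer counts. The central 50% of the IDs ran from -0.25 to 0.35 and the central 95% from -0.94 to 1.04. MCM3 exceeded 87.8% of the IDs, MCM6 82.3%, MCM5 75.7%, MCM7 69.2%, MCM2 50.6%, MCM4 32.0% and PCNA 22.1%. All 7 genes lay inside the central 95% of the IDs. With 1 library per batch, batch and replicate cannot be told apart.

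Summed over MCM2 to MCM7, the helicase genes had 2295 footprints in replicate 1 and 1227 in replicate 2. Their log2 ratio after TMM scaling was 0.29 (0.19 to 0.39). That interval holds counting error of the pooled footprints only, while the single genes ran from -0.13 for MCM4 to 0.57 for MCM3. Set directly against PCNA, the helicase sum was 1.5 times higher in replicate 1 than in replicate 2 relative to PCNA (95% conditional exact interval 1.16 to 1.92), a ratio that no scaling changes. Gene by gene the same ratio against PCNA was 1.81 for MCM3 (1.36 to 2.41), 1.68 for MCM6 (1.19 to 2.37), 1.57 for MCM5 (1.10 to 2.25) and 1.47 for MCM7 (1.13 to 1.92). It was 1.29 for MCM2 (0.913 to 1.83) and 1.12 for MCM4 (0.818 to 1.52), with intervals that included 1. All ratios against PCNA share its counts of 160 and 128 footprints, so they move together and are not separate results. Within the helicase, MCM3 against MCM4, a pair picked as the extremes after their values were seen, gave 1.62 (1.26 to 2.08). These were among 14 such contrasts, the intervals are not adjusted for their number, and they hold counting error only. These gaps are themselves differences between the vehicle libraries. Whether they exceed such gaps among other IDs was not tested.

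**Figure D4:**
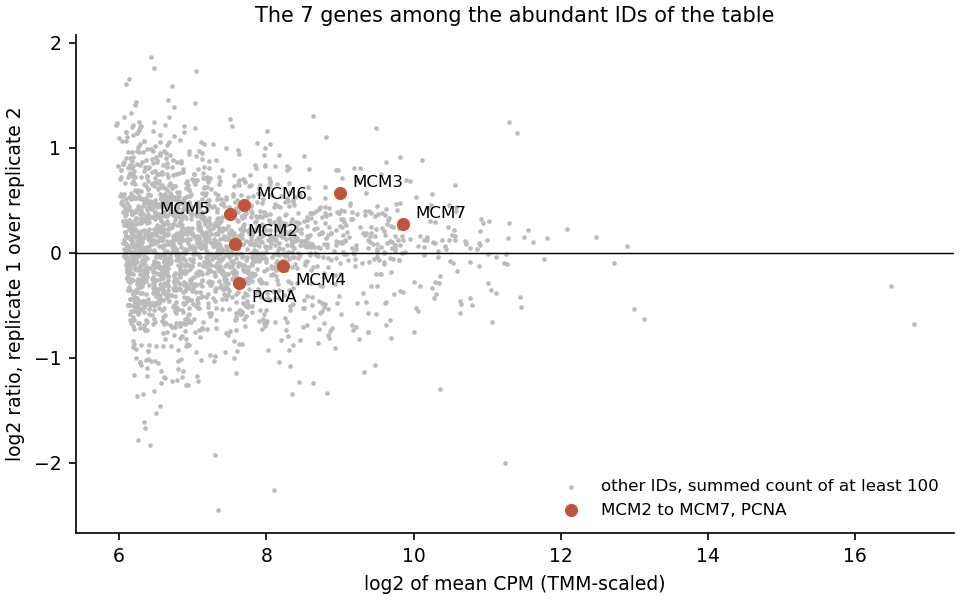
Log2 ratio of replicate 1 over replicate 2 (y axis) against the log2 of mean CPM (x axis), both TMM-scaled, for the 2241 IDs whose counts summed to at least 100 (grey) and the 7 genes (red). The 7 genes lie within the grey cloud, between -0.29 and 0.57 on the y axis, with MCM7 and MCM3 furthest to the right.

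In footprint output the set lay high in the table. The median of the members' mean CPM was 209, against 39.6 over the 6965 IDs whose counts summed to at least 20 and 135 over the 2241 IDs with at least 100. All 7 ranked between 100 and 830 of 6965. The 2 IDs nearest to the members' median over log2(CPM + 1) in the 2 libraries were ENSG00000174106.2, with 252 CPM in replicate 1 and 214 in replicate 2, and ENSG00000104774.8, with 243 and 212 CPM. The members' median was 249 and 209 CPM. With 2 libraries this likeness measures closeness of level, and these IDs could not be named here.

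Overlapping annotation bears on 3 of the genes, because the strand setting of the counting is not given in the sources used here. In the RefSeq table MCM7 overlaps AP4M1 and hosts MIR25, MIR93 and MIR106B, PCNA overlaps its antisense gene PCNA-AS1 and LOC124900464, and MCM2 overlaps LOC107986126. No overlapping gene was listed for MCM3, MCM4, MCM5 or MCM6. How any fragments were split between such genes is not known here. The miRNAs of the MCM7 host gene were chosen for printing because MCM7 led the set. As mature forms they are 21 to 23 nt long, and fragments of 27 to 29 nt were counted. Whether any fragments from these miRNA genes were counted for MCM7 was not tested. Of the 6 mature forms, 3 are printed, from RefSeq (GRCh38.p14, minus strand), with their seeds (bases 2 to 8) in capitals, and miR-106b-5p and miR-93-5p share the seed AAAGUGC.
hsa-miR-106b-5p: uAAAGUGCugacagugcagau
hsa-miR-93-5p: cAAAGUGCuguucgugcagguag
hsa-miR-25-3p: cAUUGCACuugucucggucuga
These lie at chr7:100094043-100094063, chr7:100093815-100093837 and chr7:100093571-100093592.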

How the data were processed

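The authors deposited estimated counts of ribosome-protected fragments of 27 to 29 nt per Ensembl gene ID, unscaled and in a column per library, per the labels. Per the labels' protocols, ribosomal RNA was not depleted and gel pieces of 20 to 38 nt were kept. Some deposited values are not whole (15.2% of values above 0 in replicate 1 and 13.9% in replicate 2, by more than 0.001). The submitters' processing notes name hg19 as genome build. Which aligner, counter, annotation and strand setting were used is not given in the sources used here.

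CPM and shares used all counts of a library. For ratios and count minimums, values were rounded to whole numbers, while ranks used CPM of the unrounded values. TMM factors were computed with edgeR 4.0.16 in R 4.3.3 from IDs whose counts summed to at least 20, and DESeq2 1.42.0 size factors were an alternative. Ratios have conditional exact binomial intervals and shares exact Clopper-Pearson intervals, both at 95%. Ratio rules were checked on simulated counts with counting error only, over 2241 IDs. The 200 changed IDs were drawn from those with summed counts of at least 200 and were changed 3-fold or 2-fold, up or down. Of the exact 3-fold changes 100% passed 1.5-fold, and of unchanged IDs 1.13% did. The result for the 2-fold changes is not given here. There is 1 group, so no contrast was tested and no p computed. Python 3.11.15 with numpy 2.4.6, scipy 1.17.1, pandas 2.3.3 and matplotlib 3.10.9 was used.

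The 7 genes, the other lists and the alternatives were chosen with earlier results of these data known. The rule for named genes took all 7 members and the 2 IDs nearest to their median. Of the 57820 IDs of the table, 0 matched an Ensembl ID in the RefSeq gene table (59792 genes). Lists of other replication genes (licensing, helicase activation, clamp loaders, polymerases and primase, RPA, PCNA clients, deoxynucleotide supply, other MCM proteins, proliferation markers) and of HEK293 and other cell type markers therefore could not be applied, so the cell line was not checked against markers. Footprint density per coding length, its order and ratios among the genes were planned but could not be computed without lengths.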

Additional observations from a re-analysis of the deposited data

How the results depend on the processing

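The share of counts on the 7 genes (0.253%) became 0.316% when the total excluded the 2 highest IDs and stayed within 1 SD with TMM scaling; it ran from 0.222% to 0.284% with either replicate left out. The log2 ratio of their summed counts, replicate 1 over replicate 2, was 0.25 (interval 0.15 to 0.34, counting error only). By library size the ratio was 0.36. It lay inside the main interval with DESeq2 factors, TMM over IDs of at least 100 counts and unrounded values. The same held by library size without the 2 highest IDs, an alternative added after seeing the data. Genes past 1.5-fold numbered 0, and 1 (MCM3) by library size; the other alternatives, a 2-fold limit and interval rule included, gave 0. Genes whose interval excluded a ratio of 1 numbered 3, and 4 by library size with or without the 2 highest IDs (MCM5 added) and with TMM over IDs of at least 100 counts (PCNA added), scalings added for this count after seeing the data. The median rank percentile (90.0) was 95.7 over IDs with at least 1 count and 68.9 over those with at least 100, which follows from the IDs ranked, and 90.3 to 91.5 with either replicate left out. All 35 ratios of single genes under alternatives lay inside their counting intervals with the same sign. Each alternative scaling shifts all 7 log2 ratios by the same amount, so these are not 35 separate checks. No paired analysis was possible because there is 1 group. Alternatives that need coding length were not run. Depth limits the smaller genes: MCM5, with 279 summed counts, has an interval of -0.001 to 0.74.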
